A study of Mus musculus with 6 samples.

Results

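The cytosolic ribosomal proteins are the protein subunits of the ribosome that translates nuclear-encoded messages. They were taken as every protein-coding gene whose mouse symbol starts with Rpl or Rps followed by a digit, together with Rplp0, Rplp1, Rplp2 and Rpsa, without the Rps6k kinases and symbols ending in -ps. Of 48432 genes in the deposited table, 92 had such a name, 6 of them were annotated as something other than protein coding, and 86 remained as members. They comprise 77 core subunits, of which 31 belong to the small subunit (symbols Rps, with Rpsa) and 46 to the large subunit (symbols Rpl, with the stalk proteins Rplp0, Rplp1 and Rplp2). The other 9 are the paralogs Rpl3l, Rpl7l1, Rpl10l, Rpl22l1, Rpl36al, Rpl39l, Rps27l and Rps27rt, and Rps19bp1, a nucleolar protein that binds Rps19 and is not itself a subunit. After a filter on low values (1 TPM or more in 2 or more of the 6 samples, where TPM is a transcript level scaled for length and for the library's total) 83 members were tested, and Rpl3l, Rpl10l and Rpl39l were not.

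The samples were hepatocytes of FVB mice, a laboratory strain, in 3 groups of 2. One group came from normal fed mice, titled as adult. The second came from adult mice fed DDC for 4 weeks, a diet that injures the liver and bile ducts. The third was prepared at embryonic day 18 (E18), each preparation from the pooled livers of about 8 embryos, with no agent named. No allele or transgene is named for any group, and the labels give no exact adult age. The table's columns number the samples of a group 0 and 1, and these numbers are used here as names only. Nothing in the labels states whether samples within a group are from different animals or litters, so each p-value measures only the spread between these samples, which may be technical.

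Ribosomal proteins are assembled with ribosomal RNA in the nucleolus into a small subunit, which reads the message, and a large subunit, which joins amino acids and carries the stalk that recruits elongation factors. Their messages begin with a run of pyrimidines at the cap, the terminal oligopyrimidine (TOP) motif, through which mTORC1 and the RNA-binding protein LARP1 control their translation. The liver makes large amounts of plasma protein and is rich in ribosomes, and in the fetus it is also the main site of blood formation.

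Pyrimidine runs can be looked for near the annotated start sites of the members, at or away from the cap position. RefSeq's promoter table (GRCm38.p6) matched 66 of the 86 members by symbol, 57 of them core, with 67 start sites for the core members. Each line below runs 5′ to 3′ from 25 bases before to 25 bases after a RefSeq start, and capitals mark the longest run of at least 6 C or T that starts with C. Rps6, the S6 kinase substrate, Rpl38, needed for Hox message translation in embryos, and Rps15a and Rps12, which stand out in the values given later, were chosen to show the run at different distances from the annotated start.
Rps6, chr4:86857343-86857392, reverse strand: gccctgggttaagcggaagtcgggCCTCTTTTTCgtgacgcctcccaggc
Rpl38, chr11:114668555-114668604, forward strand: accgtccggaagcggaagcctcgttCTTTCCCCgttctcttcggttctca
Rps15a, chr7:118116123-118116172, reverse strand: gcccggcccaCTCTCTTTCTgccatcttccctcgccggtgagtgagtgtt
Rps12, chr10:23787185-23787234, reverse strand: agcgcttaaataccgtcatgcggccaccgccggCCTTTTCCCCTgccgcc
In Rpl38 the run began at the annotated start itself, in Rps6 1 base before it, in Rps12 9 bases into the transcript and in Rps15a 15 bases before the start. Such a run was present on the transcribed strand of 42 of the 67 core windows (62.7%) and of 35.0% of all 32851 windows in the table. On the other strand it was present in 20.9% of core windows and 38.7% of all windows. In the whole 300-base promoter windows, CTTCCG on either strand was found in 62.7% of core members' windows and 16.9% of all windows, and CCGGAAG, which overlaps CTTCCG read on the other strand, in 37.3% and 8.86%. GGGCGG was found in 61.2% and 35.7%, AAGATGG in 16.4% and 6.34%, and CACGTG, the E-box that Myc can bind, in 11.9% and 7.15%. TATAAA went the other way over these windows, with 8.96% of core members' windows and 13.6% of all windows. These shares describe the windows and not binding.

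Depth per library is unknown, since TPM keeps no read counts. The table has no value above 0 for several abundant liver genes. Albumin (Alb), for example, was listed at 0 in all 6 samples, and 80 genes were listed at 0 in both samples of 1 group while reaching 100 TPM elsewhere. No core member was among the genes at 0. Of the 18 hepatocyte markers, 5 were at 0 in each adult sample and 3 in each E18 sample, Alb and Trf among them in all. Apoa1 was also at 0 in all adult samples, Serpina1a and Serpina1c in normal fed, Hpx and Cyp3a11 in DDC fed and Fgb in E18 samples. The marker sum ran from 40310 to 48632 TPM in normal fed, 28628 to 30101 in DDC fed and 11931 to 19003 in E18 samples. Apoa1 held 10209 and 6372 TPM of it in E18 samples 0 and 1. These sums are over unlike genes and do not measure hepatocyte content. Ttr, a plasma carrier protein of hepatocytes, was present in all samples, from 2487 to 9640 TPM.

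The members held a share of all TPM that was 3.99% and 7.76% in the normal fed samples, 4.51% and 5.17% in the DDC fed samples and 12.4% and 13.9% in the E18 samples. The group means were 5.87% ± 2.67 (SD, n = 2), 4.84% ± 0.46 (SD, n = 2) and 13.1% ± 1.03 (SD, n = 2). Both E18 samples stood above all 4 adult samples, and the DDC fed samples lay between the normal fed ones. An exact permutation test of 2 against 2 samples cannot go below p = 0.333, so these sums are given without a test. Within the core, the small subunit held 44.1% and 46.4% of the sum in normal fed, 43.4% and 43.9% in DDC fed and 47.3% and 47.7% in E18 samples, which places both E18 samples above all adult samples by a small margin.

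**Figure D1:**
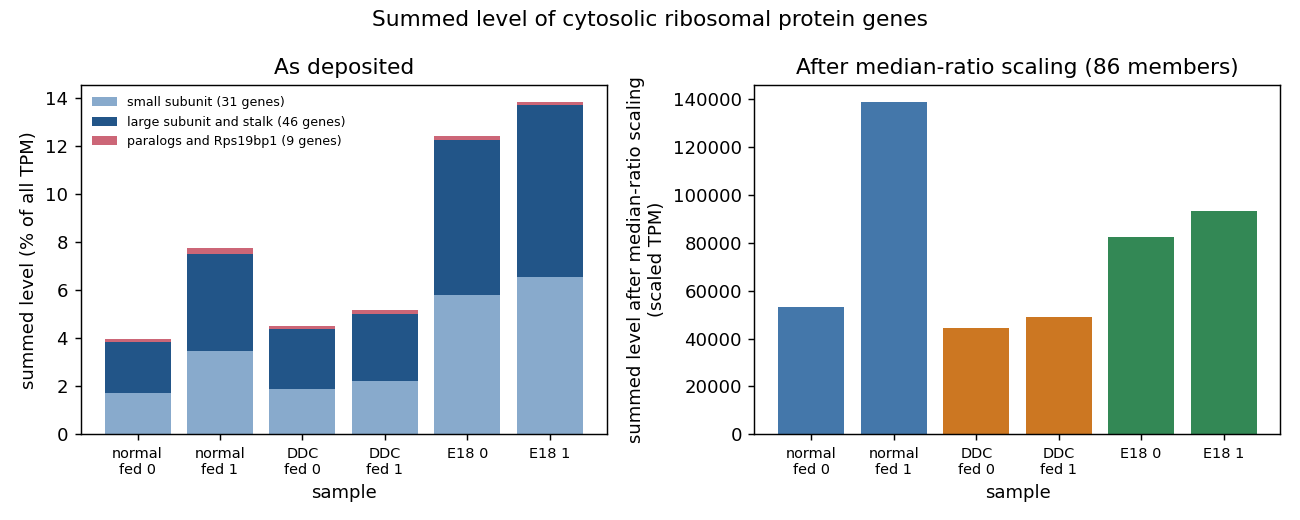
Summed level of the ribosomal protein genes in each of the 6 samples. Left, percent of all TPM as deposited, stacked by role; right, the sum of the 86 members after median-ratio scaling, in scaled TPM. On the left both E18 samples stand above the adult samples, at 12.4% and 13.9%; on the right the highest bar is normal fed sample 1.

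The order of the samples depended on the scaling. TPM fixes the total of each sample, and in E18 the median of all 14307 genes tested lay 1.06 above normal fed on the log2(TPM + 1) scale. With median-ratio scaling, in which each sample is divided by the median ratio of its genes to their geometric mean over samples, that median was 0.09. The summed member level on this scale was 53029 and 139048 in normal fed, 44448 and 49149 in DDC fed and 82659 and 93129 in E18 samples. The E18 samples then lay between the normal fed samples, and the DDC fed samples, which lay between the normal fed ones as a share of TPM, lay below all others.

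The normal fed samples differed from each other in these genes. In sample 1 the members were at a median of 1.93 times their TPM in sample 0, and 80 of 83 were higher there. The median difference, sample 1 minus sample 0, was 0.95 on the log2 scale for the members, -0.22 for all genes tested and -0.06 for the 2812 other genes of like exon length. Between the DDC fed samples the members' median difference was 0.18 and between the E18 samples 0.15, with 77 and 81 of 83 higher in sample 1. In normal fed, Rpl4, a core protein of the exit tunnel, was not higher in sample 1, with 663 and 524 TPM in samples 0 and 1. Rps27l, a p53-induced paralog of Rps27, had 466 and 1468 TPM in the normal fed samples, among the widest gaps. Every comparison with normal fed therefore carries a spread within that group that is larger than the spread within the others. The fit uses 1 spread pooled over all groups, so the SE of a gene is the same in DDC fed against E18. That SE therefore holds the normal fed spread as well.

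Levels ranged over a wide span between members. TPM is scaled for length, but how reads shared between genes were divided is not known, so ranks between members are uncertain. Rps12, a small-subunit protein, had the highest mean over all samples, with 712 and 1992 TPM (normal fed), 1155 and 1486 (DDC fed) and 4436 and 5078 (E18). Rps24, a small-subunit protein mutated in Diamond-Blackfan anaemia, was at 1016 and 2910.2 TPM (normal fed), 1163 and 1515 (DDC fed) and 3802 and 4279.7 (E18). Rpl13a, a large-subunit protein that also serves in the GAIT complex of translational silencing, was at 1216 and 3537 TPM (normal fed), 1468 and 1742 (DDC fed) and 3111 and 3522 (E18). By group mean it held rank 1 among the members in both adult groups and rank 6 in E18. Rps12 held rank 8 in normal fed, rank 5 in DDC fed and rank 1 in E18. In sample 0 of both adult groups Rpl10 was above Rpl13a, at 1534 TPM (normal fed) and 1490 TPM (DDC fed).

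At the low end, Rpl10l, the autosomal paralog of Rpl10 known from male germ cells, was listed at 0 in all 6 samples. Rpl39l, another germ cell paralog, was listed at 0 in both normal fed samples and did not exceed 0.518 TPM elsewhere. Rpl3l, the paralog of heart and skeletal muscle, was between 0.0346 and 0.228 TPM. Among the core subunits Rpl29, a heparin-binding large-subunit protein, was the lowest, with 25.7 and 32.9 TPM (normal fed), 31.9 and 34.0 (DDC fed) and 73.4 and 84.1 (E18). Both E18 values of Rpl29 lay above all adult values.

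**Figure D2:**
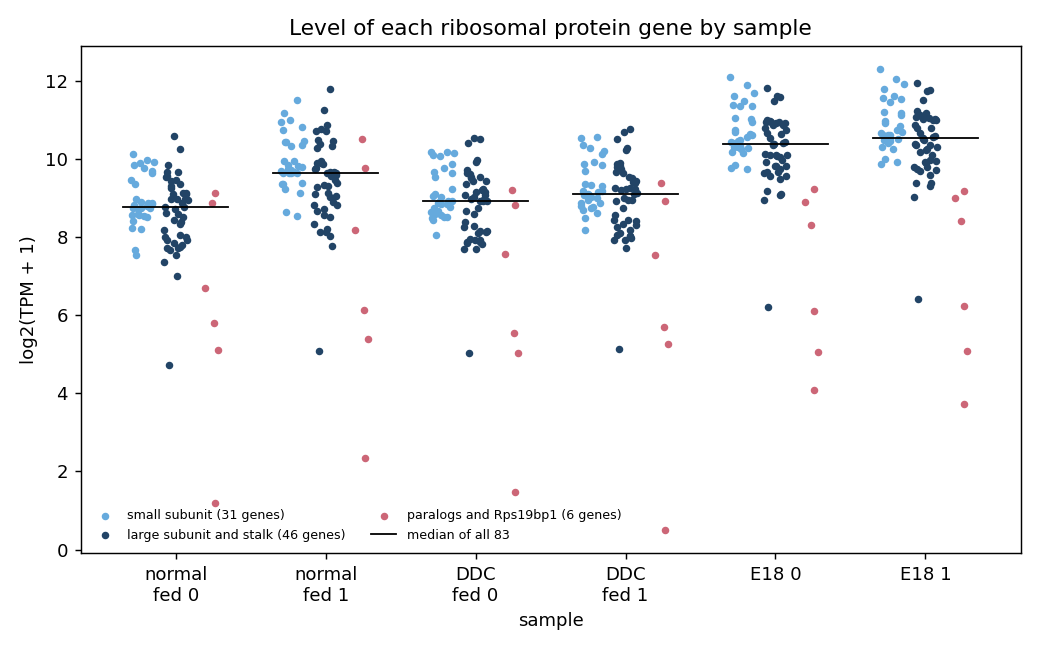
Level of each of the 83 members tested, as log2(TPM + 1), in each sample. Points are genes, grouped by role, and black lines are medians of the 83; the E18 medians lie above the others, the normal fed samples lie apart, and the single low large-subunit point is Rpl29.

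The first comparison asked how E18 hepatocytes differ from normal fed adult hepatocytes. On the TPM scale 61 of 83 members were higher in E18 and 1 was lower at an adjusted p under 0.05 (limma on log2(TPM + 1), Benjamini-Hochberg over all 14307 genes), against 63% higher and 12.7% lower of all genes tested. The members' median difference was 1.30, and the median of all genes was 1.06. Thus 73.5% of the members were called higher, a share near that of the whole table. After median-ratio scaling no member was higher, with 2 at an unadjusted p under 0.05, and 4 were lower (Rps27l, Rpl36al, Rps19bp1 and Rpl7l1), against 38% higher and 31.8% lower of all genes. The members' median was then 0.09, equal to that of all genes to 2 decimals. On that scale 50 members lay above 0 and 33 below. The groups did not overlap for 77 of 83 members with E18 higher on the TPM scale, against 69.7% of all genes, and for 2, Rps27l and Rps19bp1, with E18 lower, against 16.7%.

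By role, 25 of 31 small-subunit genes were higher on the TPM scale, with a median of 1.32, and 34 of 46 large-subunit and stalk genes, with a median of 1.29. With median-ratio scaling none of either group was called in either direction by limma, and at an unadjusted p under 0.05 the counts were 0 of 31 and 2 of 46. Leaving out 1 sample at a time gave between 20 and 79 members higher on the TPM scale. The count was 20 without E18 sample 1 and 30 without E18 sample 0, and the median moved from 1.30 to 0.82 without normal fed sample 0 and to 1.76 without normal fed sample 1.

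In the small subunit the largest difference was that of Rps15a, which contacts the central domain of the ribosomal RNA. It was at 203 and 603 TPM (normal fed), 385 and 357 (DDC fed) and 1661 and 2006 (E18), so both E18 samples lay far above the adult ones. The difference was 2.38 ± 0.49 (SE; adjusted p = 0.00377, limma). Rps6 was at 339.9 and 656 TPM (normal fed), 345 and 414 (DDC fed) and 1169 and 1266 (E18), a difference of 1.36 ± 0.35. Its lowest E18 value was above its highest adult value. Rps3, which lines the entry channel for the message, was at 422 and 924 TPM (normal fed), 469 and 549 (DDC fed) and 1407 and 1571 (E18), a difference of 1.25 ± 0.39. Rpsa, which is also known as the laminin receptor, was at 429 and 803 TPM (normal fed), 530.5 and 584 (DDC fed) and 1362 and 1574 (E18), a difference of 1.32 ± 0.34. For both genes the E18 samples stood above all 4 adult samples. Rps19, the gene most often mutated in Diamond-Blackfan anaemia, was at 297 and 803 TPM (normal fed), 379 and 426 (DDC fed) and 1234 and 1415 (E18), a difference of 1.43 ± 0.46. The adjusted p was 0.01 for Rps6, 0.0232 for Rps3, 0.011 for Rpsa and 0.0245 for Rps19 (limma).

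Other genes of this subunit did not pass. Rps14, the subunit lost in the 5q deletion syndrome, was at 450.2 and 989 TPM (normal fed), 433 and 543 (DDC fed) and 1267 and 1446 (E18), a difference of 1.02 ± 0.40 with adjusted p = 0.0519 (limma). Rps27a, made as a fusion with ubiquitin, was at 508 and 1389 TPM (normal fed), 549 and 664 (DDC fed) and 1708 and 1955 (E18), with adjusted p = 0.0656 (limma). In both genes the E18 samples lay above the adult samples, and normal fed sample 1 lay close to the E18 range.

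In the large subunit Rpl39, a small protein at the exit tunnel, was at 129 and 293 TPM (normal fed), 209 and 211 (DDC fed) and 911 and 952 (E18). The difference was 2.26 ± 0.38 (adjusted p = 0.00152, limma). Rpl36a, which sits at the exit site for transfer RNA, was at 232 and 379.7 TPM (normal fed), 311 and 323 (DDC fed) and 1349 and 1481 (E18), a difference of 2.25 ± 0.29 (adjusted p = 0.00041, limma). Rpl30, a large-subunit protein, was at 186 and 279 TPM (normal fed), 244 and 241 (DDC fed) and 905 and 973 (E18), a difference of 2.04 ± 0.26 (adjusted p = 0.000379, limma). These 3 genes, Rps15a and the retrogene Rps27rt were the 5 members with the largest rise on the TPM scale.

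Rpl5 and Rpl11 carry the 5S ribosomal RNA into the large subunit and, when free of ribosomes, bind Mdm2. Rpl5 was at 256 and 534 TPM (normal fed), 282 and 317 (DDC fed) and 904 and 984 (E18), a difference of 1.35 ± 0.36 (adjusted p = 0.0125, limma). Rpl11 was at 507 and 803 TPM (normal fed), 572 and 597 (DDC fed) and 1106 and 1202 (E18), a difference of 0.85 ± 0.29 (adjusted p = 0.0331, limma). Both passed on the TPM scale, and with median-ratio scaling the difference of Rpl11 was -0.35. Rpl38 was at 436 and 859 TPM (normal fed), 540.3 and 617 (DDC fed) and 1775 and 1862 (E18), a difference of 1.57 ± 0.36 (adjusted p = 0.0062, limma). Rpl10a, a protein of the stalk opposite the P proteins, was at 242 and 454 TPM (normal fed), 285 and 339 (DDC fed) and 759 and 848 (E18), a difference of 1.27 ± 0.33 (adjusted p = 0.0112, limma). Rpl13a did not pass, with a difference of 0.67 ± 0.51 and adjusted p = 0.265 (limma), and its normal fed sample 1 was as high as the E18 samples. Rpl41, the smallest of these proteins, was at 701 and 1692 TPM (normal fed), 975 and 1198 (DDC fed) and 1936 and 2320.3 (E18), a difference of 0.96 ± 0.44 that did not pass (adjusted p = 0.0866, limma).

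All 3 stalk genes passed. Rplp0, the base on which the stalk is built, was at 547 and 936 TPM (normal fed), 690.1 and 794 (DDC fed) and 1888 and 2071 (E18), a difference of 1.46 ± 0.33 (adjusted p = 0.00552, limma). Rplp1 was at 923 and 1428 TPM (normal fed), 1368 and 1462 (DDC fed) and 3649 and 3925 (E18), and Rplp2 at 558 and 777 TPM (normal fed), 689 and 688 (DDC fed) and 1731 and 2068 (E18). Their differences were 1.72 ± 0.32 and 1.52 ± 0.28. For all 3 the E18 samples lay above all adult samples.

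**Figure D3:**
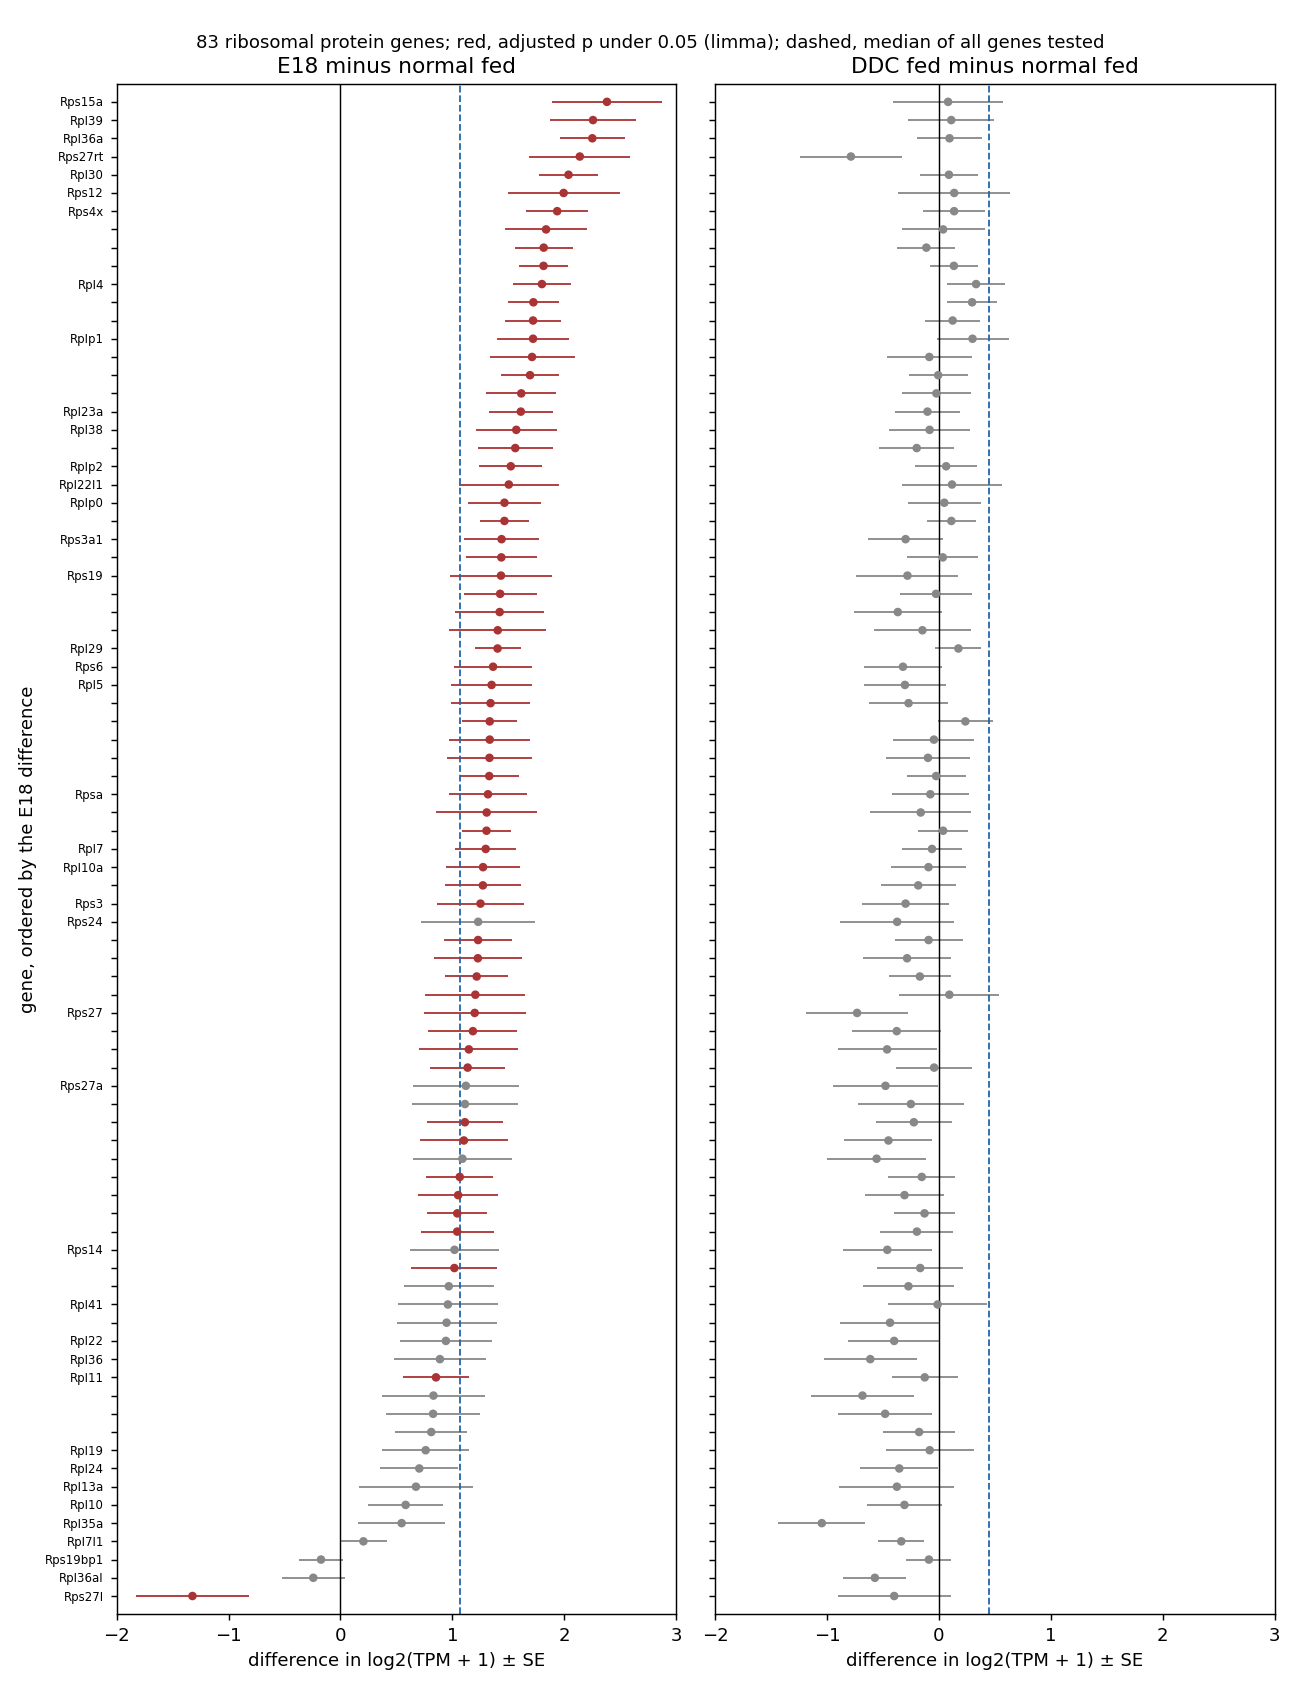
Difference in log2(TPM + 1) of each of the 83 members tested, with its SE, in the order of the left panel. The left panel is E18 minus normal fed and the right panel DDC fed minus normal fed. Labels mark genes the text names, except Rps2. Red marks an adjusted p under 0.05 (limma), and the dashed line is the median of all 14307 genes tested; Rps27l is the lowest on the left, no member is red on the right, and with median-ratio scaling no member was called higher in E18.

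The second comparison asked what 4 weeks of DDC feeding changed. None of the 83 members passed in either direction (limma), against 34.2% higher and 3.07% lower of all genes tested. At an unadjusted p under 0.05, no member was higher and 1, Rpl35a, was lower. The members' median difference was -0.15, while the median of all genes was 0.45. The groups were apart for 5 members higher in DDC fed and 3 lower, against 62.4% and 8.99% of all genes, and 75 overlapped. With median-ratio scaling 2 members were lower, Rpl35a and Rpl7l1, against 11.6% of all genes, and no member was higher, also at an unadjusted p under 0.05, against 20.5%. There the members' median was -0.82 where that of all genes was 0.

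This comparison moved with the normal fed sample that was kept. Without normal fed sample 0, 43 members were lower and the median was -0.62. Without normal fed sample 1, 3 members were higher, none of those tested was lower, and the median turned to 0.25. Rpl35a, a large-subunit protein mutated in some cases of Diamond-Blackfan anaemia, was at 336 and 764 TPM (normal fed), 232 and 259 (DDC fed) and 716 and 767 (E18). Both DDC fed values lay below both normal fed values. The difference was -1.05 ± 0.39 (adjusted p = 0.0761, limma).

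For several members named above the difference was small. Rps15a had a difference of 0.08 ± 0.49, Rpl39 0.11 ± 0.38, Rpl36a 0.10 ± 0.29, Rps6 -0.32 ± 0.35 and Rplp0 0.05 ± 0.33. Each of these is smaller than its SE.

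The third comparison set DDC fed against E18 hepatocytes. It shares the DDC fed and E18 samples with the comparisons above. Through the pooled spread, its SEs and adjusted p also depend on the normal fed samples. On the TPM scale 74 of 83 members were lower in DDC fed and none was higher (limma, also at an unadjusted p under 0.05), against 47% lower and 17.7% higher of all genes tested. The members' median difference was -1.45 and that of all genes -0.55. All 31 small-subunit genes and 41 of 46 large-subunit and stalk genes were lower. The groups did not overlap, with DDC fed lower, for 81 members, against 61.8% of all genes, and for 1 member, Rps27l, with DDC fed higher, against 28.2%. With median-ratio scaling 15 members were lower and none higher (also none at an unadjusted p under 0.05), against 34.1% lower and 27.9% higher of all genes, with medians of -0.92 for members and -0.08 for all genes. Without 1 sample at a time the count of members lower on the TPM scale ran from 19 (without E18 sample 1) to 80, and was 23 without DDC fed sample 0, 26 without E18 sample 0 and 39 without DDC fed sample 1.

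The 5 largest falls were those of Rps27rt at -2.92 ± 0.45, Rps15a at -2.30 ± 0.49, Rpl36a at -2.15 ± 0.29, Rpl39 at -2.15 ± 0.38 and Rpl30 at -1.95 ± 0.26. Each of these also passed with median-ratio scaling. Among the 9 members that did not pass, Rps27l was higher in DDC fed by 0.92 ± 0.50 (adjusted p = 0.149, limma). Rpl7l1, a nucleolar relative of Rpl7, had a difference of -0.54 ± 0.21 (adjusted p = 0.0548, limma). Rpl10, the protein that completes the large subunit in the cytoplasm, had a difference of -0.89 ± 0.33 (adjusted p = 0.0521, limma).

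The members did not all change by equal amounts. To compare them with each other, each sample was divided by its member sum, rescaled to a common total and refitted. On this scale E18 against normal fed gave 3 members higher and 3 lower of 83, against 25.6% higher and 17.2% lower of all genes tested. DDC fed against E18 gave 3 higher and 1 lower, against 30.2% and 14.2%. DDC fed against normal fed gave none in either direction (limma), with 0 higher and 1 lower at an unadjusted p under 0.05, against 19.2% and 1.36%. Of the 77 core members, 3 were higher and 0 lower in E18 against normal fed. No core member was called in either comparison of DDC fed, so all other calls were of paralogs or Rps19bp1.

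Rps15a, Rpl39 and Rpl36a were the members higher in E18 within the set. Their differences were 1.15 ± 0.34, 1.02 ± 0.32 and 1.02 ± 0.30 (adjusted p = 0.0296, 0.0378 and 0.0308, limma). Rps27l, Rpl36al and Rps19bp1 were lower, by -2.55 ± 0.34, -1.48 ± 0.30 and -1.37 ± 0.43 (adjusted p = 0.000837, 0.00645 and 0.0373, limma). Rps19bp1 was at 33.4 and 40.8 TPM (normal fed), 31.9 and 37.6 (DDC fed) and 32.4 and 32.8 (E18), a nearly level series on the TPM scale, where 61 of 83 members passed as higher in E18. In DDC fed against E18, which uses the same E18 samples, Rps27l, Rpl36al and Rps19bp1 were higher, by 2.36 ± 0.34, 1.11 ± 0.30 and 1.48 ± 0.43, and Rps27rt was lower, by -1.82 ± 0.47. The Rps27l call held without each sample in turn in both comparisons. The other 5 calls of E18 against normal fed were lost without either E18 sample. Those of Rps15a, Rpl39, Rpl36a and Rps19bp1 were also lost without either DDC fed sample, which lowers the residual degrees of freedom. In DDC fed against E18 the calls of Rpl36al and Rps19bp1 were lost without any 1 DDC fed or E18 sample. That of Rps27rt was lost without either E18 sample or without DDC fed sample 1.

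**Figure D4:**
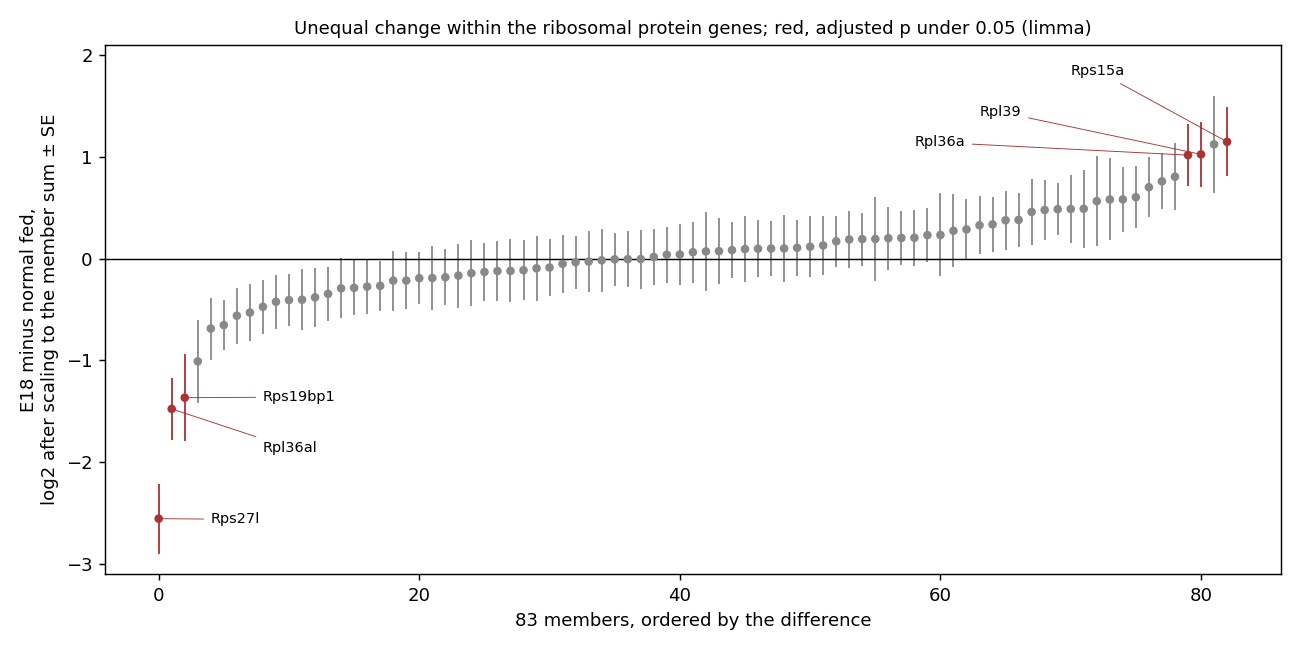
Difference E18 minus normal fed of each of the 83 members tested after each sample was scaled to its member sum, with SE, in rising order. Red marks an adjusted p under 0.05 (limma); Rps27l lies lowest, at -2.55, and the 3 labelled members at the upper end lie between 1.02 and 1.15.

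The pairs of a core subunit and its paralog can be read without any scaling, as the paralog's percent of the pair's TPM in a sample. The start windows of Rps27 with Rps27rt and Rps27l, and of Rpl36a with Rpl36al, are shown to compare the genes of a pair, with capitals as above.
Rps27, chr3:90213624-90213673, reverse strand: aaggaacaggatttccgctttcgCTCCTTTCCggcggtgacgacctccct
Rps27rt, chr9:114982715-114982764, reverse strand: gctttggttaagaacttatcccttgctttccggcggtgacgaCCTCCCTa
Rps27l, chr9:66946061-66946110, forward strand: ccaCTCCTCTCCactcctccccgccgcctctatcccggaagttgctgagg
Rpl36a, chrX:134585629-134585678, forward strand: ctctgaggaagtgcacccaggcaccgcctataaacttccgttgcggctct
Rpl36al, chr12:69184043-69184092, reverse strand: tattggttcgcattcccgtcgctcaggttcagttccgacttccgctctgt
Rps27 and Rps27rt share an unbroken stretch of 38 bases that begins 2 bases into the Rps27 transcript and 1 base into that of Rps27rt. The longest stretch shared by the 300-base windows of Rps27 and Rps27l was 10 bases, and for Rpl36a and Rpl36al 8 bases. No run of at least 6 C or T starting with C was found in the windows of Rpl36a and Rpl36al. RefSeq lists another start of Rps27l, whose window also held no such run. The search for shared stretches used only 1 of the Rps27l windows.

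Rps27l made up 33.7% and 38.9% of the Rps27 and Rps27l sum in normal fed samples, 42.1% and 41.3% in DDC fed samples and 9.24% and 8.76% in E18 samples. The means were 36.3% ± 3.65, 41.7% ± 0.61 and 9.0% ± 0.34 (SD, n = 2). The E18 samples lay far below the others. Rps27l itself was at 466 and 1468 TPM (normal fed), 592 and 664 (DDC fed) and 319 and 342 (E18), and Rps27, a zinc-binding small-subunit protein, at 917 and 2308 TPM (normal fed), 813 and 945 (DDC fed) and 3138 and 3557 (E18). Rps27l was the 1 member lower in E18 on the TPM scale, by -1.32 ± 0.50 (adjusted p = 0.0476, limma), and this call was lost without any 1 DDC fed or E18 sample. Its lowest normal fed value was 466 TPM and its highest E18 value 342 TPM. Rps27 differed by 1.20 ± 0.46 (adjusted p = 0.047, limma).

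Rpl36al made up 70.7% and 69.7% of its pair in normal fed samples, 59.2% and 60.2% in DDC fed samples and 30.7% and 28.3% in E18 samples. The means were 70.2% ± 0.72, 59.7% ± 0.70 and 29.5% ± 1.70 (SD, n = 2). The 3 groups did not overlap, and DDC fed lay between normal fed and E18. Rpl36al was at 559 and 873 TPM (normal fed), 452 and 489 (DDC fed) and 597 and 584 (E18), a difference of -0.24 ± 0.28 in E18 that did not pass (adjusted p = 0.456, limma), while Rpl36a passed with 2.25 ± 0.29. Both DDC fed values of Rpl36al lay below its normal fed and E18 values. With median-ratio scaling Rpl36al was lower in E18, at -1.45 ± 0.38 (adjusted p = 0.0153, limma), and Rpl36a had a difference of 1.05 ± 0.40 that did not pass (adjusted p = 0.0542, limma). The share within a sample does not depend on the scaling.

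Rpl7l1 made up 9.81% and 9.03% of its pair in normal fed, 7.86% and 7.91% in DDC fed and 4.67% and 4.64% in E18 samples. Rpl7l1 was at 54.6 and 69.8 TPM (normal fed), 46.1 and 51.4 (DDC fed) and 68.2 and 74.5 (E18), and Rpl7, its large-subunit partner, at 501 and 703 TPM (normal fed), 540.2 and 599 (DDC fed) and 1393 and 1531 (E18). The 3 groups did not overlap in this share either. Rpl22l1, whose protein acts against Rpl22 in blood cell development, made up 20.9% and 24.7% of its pair in normal fed, 31.9% and 27.6% in DDC fed and 32.9% and 28.0% in E18 samples. Here the DDC fed and E18 samples overlapped and both lay above normal fed. Rpl22l1 was at 104 and 289 TPM (normal fed), 191 and 186 (DDC fed) and 478 and 509 (E18), a difference of 1.50 ± 0.45 in E18 (adjusted p = 0.0191, limma), and Rpl22 at 393 and 881 TPM (normal fed), 407 and 488 (DDC fed) and 975 and 1311 (E18), a difference of 0.94 ± 0.41 that did not pass (adjusted p = 0.0739, limma).

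For the groups of a pair that did not overlap, the exact two-sided permutation test gave p = 0.333, the smallest that 2 against 2 samples allow. The Rpl3l share did not exceed 0.0497% and the Rpl39l share 0.0543% in any sample. Rps4l, a relative of Rps4x that the annotation does not list as protein coding, made up a mean of 1.70% of its pair with Rps4x in normal fed, 1.78% in DDC fed and 1.50% in E18, and the groups overlapped.

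**Figure D5:**
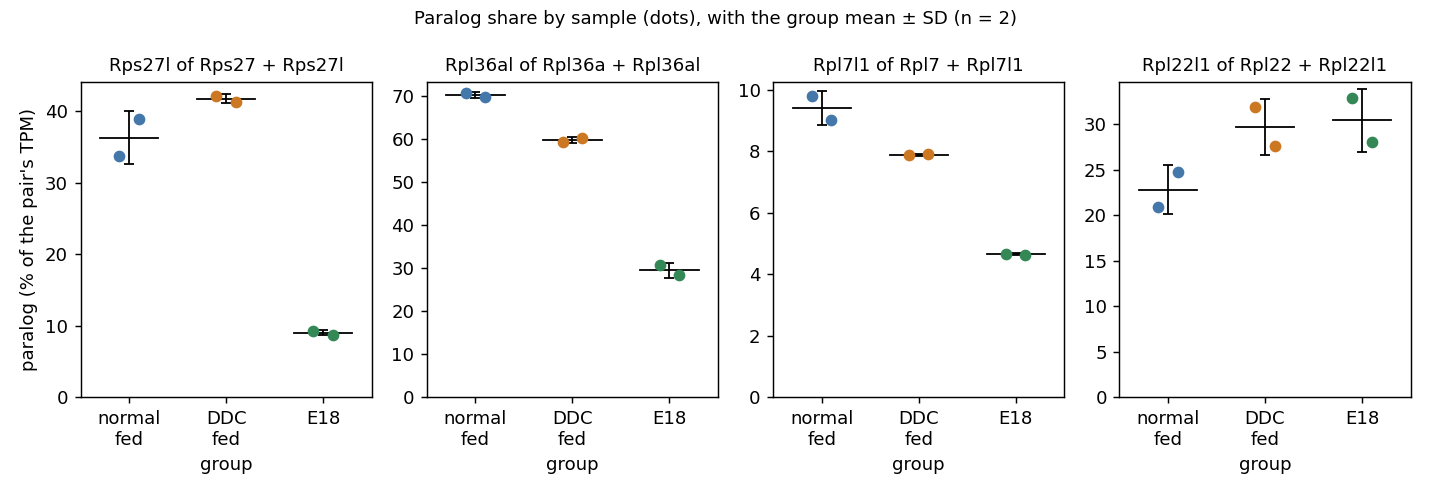
Share of the paralog in the summed TPM of 4 pairs, in percent, by group. Dots are samples, lines are group means and bars the SD (n = 2); Rps27l, Rpl36al and Rpl7l1 have their lowest shares in E18, and for Rpl22l1 the lowest are the normal fed samples, at 20.9% and 24.7%.

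Reads can be shared between these genes and their many copies, and how the authors' tool divided them is not given in the sources used here. Of all 50-base words in a member's annotated transcripts, a median of 20.4% also occurred in transcripts of other genes, with a range of 0% to 91.1%. The share was above 50% for 7 members, Rps27rt with 91.1%, Rpl36 with 81.1%, Rps3a1 with 71%, Rplp1 with 60%, Rpl19 with 57.4%, Rpl24 with 51.8% and Rpl23a with 50.1%. Values of these 7 are uncertain for this reason, and a lower share does not clear a member. The share is taken over all annotated transcripts of a gene, whatever their level in the samples. Rps15a shared 322 of its 6293 words with 39 other genes, and Rpl29 453 of 1289 with 82. The pairs Rps27 and Rps27l, Rpl36a and Rpl36al, Rpl7 and Rpl7l1 and Rpl22 and Rpl22l1 shared no such word. Rps27rt, a retrogene copy of Rps27 on chromosome 9, was at 1.3 and 4.05 TPM (normal fed), 1.77 and 0.412 (DDC fed) and 16.1 and 12.1 (E18), a difference of 2.14 ± 0.45 in E18 (adjusted p = 0.00433, limma), and 25% of the words of Rps27 occur in it. Its 4 adult values were all below its E18 values.

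Genes of the same pathway were read from lists of their own, to be read against all genes tested. Of those, 63% were higher and 12.7% lower in E18 than in normal fed, and 38% and 31.8% with median-ratio scaling. For DDC fed against normal fed the shares were 34.2% and 3.07%, and 20.5% and 11.6% with that scaling. Among ribosomal proteins with other kinds of symbol, Rack1, a small-subunit scaffold, was higher in E18 (1.53 ± 0.35, adjusted p = 0.0063, limma) at 1306 and 1405 TPM against 335 and 658 in normal fed. Fau, made as a fusion with a ubiquitin-like protein, did not pass (0.83 ± 0.36). Neither of these genes passed in DDC fed against normal fed (limma), with differences of -0.14 ± 0.35 and -0.49 ± 0.36.

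Of 24 other messages with a TOP motif, such as elongation factors, 19 were higher in E18 than in normal fed and none lower (limma), against 63% and 12.7% of all genes, with a median of 1.31 beside 1.06. With median-ratio scaling 6 were higher and 1 lower, against 38% and 31.8%, with a median of 0.11 beside 0.09. The smallest adjusted p were those of Vim, an intermediate filament of mesenchymal cells, at 2.77 and 0.99 TPM in normal fed and 336 and 353 in E18, Hnrnpa1, a splicing regulator, at 44.5 and 25.5 and 548 and 613, Nap1l1, a histone chaperone, at 55.9 and 57.7 and 338 and 378, and Npm1, a nucleolar chaperone, at 216 and 278 and 1333 and 1432. In DDC fed against normal fed 2 of the 24 were higher, Vim (3.68 ± 0.31) and Nap1l1 (0.85 ± 0.19), and with median-ratio scaling 1 was.

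Of 46 ribosome assembly factors tested, 39 were higher in E18 than in normal fed and 1 lower on the TPM scale, against 63% and 12.7% of all genes. With median-ratio scaling 14 were higher and 7 lower, against 38% and 31.8%. Nop56 and Nop58, the core proteins of box C/D particles, were at 43.6 and 37.4 and 87.3 and 79.7 TPM in normal fed and at 201 and 217 and 331 and 341 TPM in E18. Dkc1, the pseudouridine synthase, was at 12.5 and 8.6 in normal fed and 73.1 and 81.8 TPM in E18. In DDC fed against normal fed, Eif6, which keeps the subunits apart until the large one is mature, was higher by 1.61 ± 0.20 (adjusted p = 0.00133, limma), and Rbm28, a nucleolar RNA-binding protein, by 0.77 ± 0.23 (adjusted p = 0.037, limma). These were 2 of 46, with none lower, and with median-ratio scaling 1 was higher and 18 lower.

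Of 11 genes for RNA polymerase I transcription, 8 were higher in E18 and none lower (limma), a share of higher genes near the 63% of all genes. With median-ratio scaling 3 were higher and 1 lower, against 38% and 31.8%. Ubtf, the factor that binds the ribosomal DNA, was at 28.3 and 19.6 TPM in normal fed, 33.4 and 39.9 in DDC fed and 92.3 and 102 in E18. Of these 11, Taf1b, a subunit of the selectivity factor, was the 1 that was higher in DDC fed, by 0.62 ± 0.19 (adjusted p = 0.0415, limma). With median-ratio scaling that call was lost and 2 of the 11 were lower in DDC fed.

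Of 10 chaperones and importers of ribosomal proteins, 7 were higher in E18 on the TPM scale, again near the 63% of all genes, and 2 were higher and 3 lower once scaled by median ratio, against 38% and 31.8%. Ipo5, an importer of the karyopherin family, was higher in E18 by 2.61 ± 0.31 and in DDC fed by 1.17 ± 0.31 (adjusted p = 0.000271 and 0.0259, limma). With median-ratio scaling its DDC fed call was lost and 2 of the 10 were lower in DDC fed.

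Of 16 genes of mTORC1, S6 kinase, LARP1 and Myc, 11 were higher in E18 than in normal fed and none lower (limma), a share of higher genes near the 63% of all genes. With median-ratio scaling 4 were higher and 3 lower, against 38% and 31.8%. Myc, a transcription factor with ribosomal protein genes among its targets, was at 22.9 and 2.44 TPM in normal fed, 32.7 and 54.7 in DDC fed and 93.8 and 104 in E18. Its difference of 3.46 ± 0.81 passed in E18 (adjusted p = 0.00686, limma) and that of 2.26 ± 0.81 in DDC fed did not (adjusted p = 0.0685, limma). In DDC fed against normal fed, Eif4ebp1, a translation repressor that mTORC1 switches off, was higher by 1.22 ± 0.20, Tsc1, an inhibitor of mTORC1 signalling, by 0.79 ± 0.25, and Mycn was lower by -0.63 ± 0.13 at levels below 1 TPM. With median-ratio scaling 1 of the 16 was higher and 1 lower in DDC fed.

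Markers of other cells were higher in E18 than in normal fed, and many were also higher in DDC fed. Of all genes tested, 63% were higher in E18 and 34.2% in DDC fed. All 18 erythroid markers tested were higher in E18 than in normal fed, with a sum of 28.0 to 39.6 TPM in normal fed, 37.3 to 37.5 in DDC fed and 13442 to 25032 in E18 samples, Hba-a1 and Hbb-bs leading. All 11 leukocyte and neutrophil markers tested were higher, with sums of 1.05 to 1.32, 9.84 to 11.5 and 55535 to 66064 TPM, S100a8 and S100a9 leading. All 13 macrophage markers were higher, with sums of 134 to 163, 1320 to 1618 and 4073 to 5238 TPM. Endothelial markers summed to 16.1 to 47.7, 184 to 194 and 512 to 515 TPM, stellate and fibroblast markers to 13.4 to 29.3, 359 to 401 and 321 to 352 TPM, and cholangiocyte markers to 12.2 to 14.2, 85.4 to 107 and 97.9 to 152 TPM. In DDC fed against normal fed, 13 of 13 macrophage, 9 of 10 endothelial, 10 of 11 stellate and fibroblast and 2 of 6 cholangiocyte markers were higher (limma). Among leukocyte and neutrophil markers 4 of 11 were higher there, and of the 18 erythroid markers 1 was higher and 1 lower. Cell division genes rose in E18 and in DDC fed, 15 of 15 in each, with sums of 37.5 to 41.1 TPM in normal fed, 360 to 427 in DDC fed and 2139 to 2797 in E18 samples. With median-ratio scaling the erythroid, leukocyte and cell division counts in E18 were unchanged and 12 of 13 macrophage markers were higher, against 38% of all genes. In DDC fed 15 of 15 cell division genes and 13 of 13 macrophage markers were higher on that scale, against 20.5%. The part of other cells and of dividing cells in the ribosomal protein values was not tested, and in bulk RNA fewer cells of a type and less RNA per cell cannot be told apart.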

How the data were processed

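Polyadenylated RNA of mouse hepatocytes was sequenced from stranded libraries, per the labels. The authors deposited 1 table of TPM for 48432 gene IDs in 6 samples. Tools named in the submitters' processing notes are STAR 2.4.2a, Cuffdiff 2.2.1, HTSeq, DESeq2, Trimmomatic, bcl2fastq 2.17.1.14 and Picard 1.119, with the build GRCm38. Which of them gave the TPM, and how it treated reads with several matches, is not given in the sources used here. Depth is unknown.

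IDs were matched to GENCODE M21 (GRCm38), 48053 of 48432 with a match. TPM was log2 transformed with a pseudocount of 1. The 14307 genes that reached 1 TPM in 2 or more samples were fitted with limma 3.58.1 in R 4.3.3, with 1 mean per group over all 6 samples (3 residual degrees of freedom), empirical Bayes with trend, and Benjamini-Hochberg adjustment at 0.05. The code was tested on simulated data. Fold differences are on the log2(TPM + 1) scale, which understates changes of low genes. Exact permutation tests were used for paralog shares. A word search compared annotated transcripts by their 50-base words.

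Alternatives were other pseudocounts, filters and scalings, an exon length correction, a replicate block, other gene sets and leaving out each sample. Refits within the set combined with left-out samples, the block or the length correction were chosen after seeing the data. The same-numbered samples deviated together with correlations of 0.23, 0.14 and 0.06 over all genes tested, not all above 0.1, so the numbers were not taken as pairs. Over the 83 members these correlations were 0.26, 0.04 and 0.53. Most members were higher in sample 1 of every group (80, 77 and 81 of 83), a common shift that a correlation does not register. Whether the numbers mark pairs is therefore not settled for this set.

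The members and lists were chosen with earlier results of these data known. Named were the paralog pairs, the stalk and a fixed panel of subunits, the 5 members with the largest rise and fall in a comparison, the 3 highest and lowest, those listed at 0 in a group, and up to 4 genes of each other list. Rpl4, Rpl29, Rpl35a, Rps2 and the members with over 50% shared words were named after their values were seen. Results of a few genes are not reported here.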

Additional observations from a re-analysis of the deposited data

How the results depend on the processing

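With median-ratio scaling, E18 against normal fed gave 0 members higher, 4 lower and a median of 0.093, DDC fed against normal fed 2 lower and a median of -0.82, and DDC fed against E18 15 lower and a median of -0.92. The summed member level in E18 was then 0.915 times that of normal fed and 1.88 times that of DDC fed. Rescaled to the member sum, the counts for E18 against normal fed were 3 higher and 3 lower with a median of 0.062, those for DDC fed against E18 3 higher and 1 lower with a median of -0.012, and the median of DDC fed against normal fed turned to 0.057. That scaling sets the summed level of the set equal in all samples by construction. The cause of the other shifts was not tested.

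Single members changed sign with median-ratio scaling. In E18 against normal fed the values were -0.0059 for Rps27, -0.98 for Rpl7l1, -0.26 for Rpl22, -0.53 for Rpl13a, -0.19 for Rps14, -0.35 for Rpl11, -0.25 for Rpl41 and -0.084 for Rps27a. In DDC fed against normal fed they were -0.59 for Rps15a, -0.56 for Rpl39, -0.58 for Rpl36a and -0.62 for Rplp0. Rescaled without the 50 highest and the erythroid genes, these 4 were -0.093, -0.064, -0.080 and -0.13, and Rpl7l1 in E18 was -0.022. With the exon length correction Rpl36al was 0.16 and Rps19bp1 0.26 in E18 against normal fed.

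A threshold of 0.01 left 33 members higher and 0 lower in E18 against normal fed and 39 lower in DDC fed against E18. The 1 member lower in E18 (Rps27l) became 0 among the core members alone, with a pseudocount of 5, with no filter, with the exon length correction and with the compared groups fitted alone. The last gave 1 member higher in DDC fed than in E18, and the length correction 1 higher in DDC fed than in normal fed (Rplp1). With a replicate block, E18 against normal fed gave 72 higher and 1 lower, DDC fed against E18 79 lower, and DDC fed against normal fed 0 higher and 1 lower (Rpl35a), against none without the block.

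Without 1 sample at a time, members higher in E18 than in normal fed ran from 20 to 79, members lower from 0 to 2 and the median from 0.82 to 1.76. For DDC fed against normal fed these were 0 to 3, 0 to 43 and -0.62 to 0.25, and for DDC fed against E18 0 to 1 higher and 19 to 80 lower. The sum over that of normal fed ran from 1.69 to 3.29 in E18 and from 0.624 to 1.21 in DDC fed. Against normal fed, the DDC fed difference ran from -0.70 to 0.87 for Rps15a, -0.48 to 0.70 for Rpl39, -0.26 to 0.45 for Rpl36a, -0.79 to 0.15 for Rps6 and -0.34 to 0.43 for Rplp0, and the E18 difference from -0.56 to 0.078 for Rpl36al and -0.096 to 1.44 for Rpl13a. The Rpl22l1 share in DDC fed minus E18 ran from -3.16 to 1.74 points. The shares of Rps27l, Rpl36al and Rpl7l1 kept their direction without each sample in turn. With 2 samples a group and no read counts, the precision of single genes cannot be set from depth.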

Other observations

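Copies of ribosomal protein genes that carry a pseudogene name were outside the members. The table holds 274 genes with such names, and their summed TPM was 887 and 1104 (normal fed), 887 and 929 (DDC fed) and 1348 and 1401 (E18), small beside the members' sums. Most of it came from Rps2-ps10, which held between 676 and 826 TPM in every sample. Without it the sums were 198 and 428, 210.5 and 252, and 585 and 574.5 TPM in that order. Host transcripts of small nucleolar RNAs are common among the members: 30 of the 86 contain 58 annotated snoRNAs inside their bounds, and the members lie on 19 chromosomes.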
